A study of Homo sapiens with 6 samples.

Results

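The genes described here make ribosomes. They number 58, chosen as a fixed list by function: proteins of the small nucleolar ribonucleoprotein particles (snoRNPs), assembly factors of the small and the large ribosomal subunit, other nucleolar proteins, and subunits and initiation factors of RNA polymerases I and III. The list was chosen with earlier results of these data known. Of the 58, 55 were measured by a probe set that carries a single gene symbol, out of 18417 genes measured in this way. NOP56, GNL3 and DDX18 had no such probe set and have no value here. The data are mRNA profiles of MDA-MB-231 cells, a human line of triple negative breast cancer, which lacks hormone receptors and HER2 overexpression. EC-70124, an indolocarbazole that inhibits many kinases, was given at 500 nM during 24 h to 3 samples, and 3 samples of the same line without the drug were the controls. The methods call the samples independent, and no vehicle is named for the controls. A single line, dose and time were profiled, and p-values measure the spread between these samples.

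A ribosome starts in the nucleolus, where RNA polymerase I copies the genes of the long precursor of ribosomal RNA (rRNA). A large particle, the small-subunit processome, folds and cuts this precursor, snoRNPs guide the chemical modification of its bases and sugars, and GTPases, helicases and scaffold proteins then build both subunits. RNA polymerase III makes the smallest rRNA and the transfer RNAs encoded in the nucleus. Growth signalling through mTOR and the transcription factor MYC is known to drive both polymerases, and many cancer cells have enlarged nucleoli.

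The deposited value for each probe set is dChip's model-based expression index (MBEI), an intensity on a linear scale. Its median over all probe sets was 451 to 460.1 in the EC-70124 arrays and 437 to 444 in the control arrays. These values are relative to the whole array, so that a change in total RNA per cell is not visible, and in such bulk RNA fewer cells of a kind and less mRNA per cell cannot be told apart. Of 6 genes known to be high in this line, 4 were called lower with EC-70124 (CD44, AXL, FN1 and MET), and VIM, which was not called, averaged 13148 ± 269 with EC-70124 and 13827 ± 148 in controls, and ESR1, the oestrogen receptor gene, 208 ± 25.1 and 225 ± 6.90 (intensity, SD, n = 3 each). Of 5 luminal and HER2 markers, GATA3 was called higher (log2 fold change 0.46, adjusted p = 0.000446), and of 3 epithelial markers CDH1 was called higher (0.19, adjusted p = 0.0490) and KRT19 lower (-0.49, adjusted p = 0.0182). The part of these markers in the results below was not tested. None of 5 leukocyte and endothelial markers passed limma's test (adjusted p of 0.215 to 0.873). The table holds no background level, and absence of a transcript could not be tested. Over all genes tested, limma called 19.7% higher and 14.8% lower in the EC-70124 samples at a Benjamini-Hochberg adjusted p under 0.05. After quantile normalization 46.9% of the calls were rises, against 57.2% with the deposited normalization.

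EC-70124 replicate 3 stood apart in these genes. Relative to the mean of the control arrays, the median of the 55 genes was 0.28 on the log2 scale in EC-70124 replicate 3, 0.05 in replicate 1 and 0.04 in replicate 2. The same median over all genes lay between -0.01 and 0.01 in the 3 treated arrays. Replicate 3 gave the highest of the treated values in 46 of the 55 genes (83.6%), and in 36.3% of all genes. The cause of its difference was not tested. For a role or a further list, a printed count of calls or median that moved by over 1.5 times without this array has that value beside it. Without this array 21.1% of all genes were called higher and 16.0% lower. Counts of non-overlap, of changes of at least 1.5-fold and of all pathway genes together were not recomputed without it. The same holds for the motif counts and the complexes.

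Of the 55 measured genes, 14 were higher and 6 were lower in the EC-70124 samples (limma, adjusted p under 0.05 over all genes), and 35 did not pass the test. The share of rises was 25.5%, against 19.7% of all genes, and the share of falls 10.9%, against 14.8% of all genes. Both shares lay near the background. The median log2 fold change of the 55 genes was 0.11, and that of all genes was -0.00449. In 26 genes the 3 treated values lay above all control values and in 9 below them, while 20 genes overlapped. These are 47.3% and 16.4% of the 55 genes, against 25.6% and 22.0% of all genes. The lower count depends on EC-70124 replicate 3. In NCL, DKC1, NOLC1, NOP16 and WDR12, replicates 1 and 2 lay below all controls and replicate 3 above them. After quantile normalization 13 of the 55 were higher and 9 lower (23.6% and 16.4%, against 16.9% and 19.2% of all genes). Without EC-70124 replicate 3, 14 genes were still called higher, 25.5% of the 55 against 21.1% of all genes. In that setting 12 were called lower, 21.8% of the 55 against 16.0% of all genes, and the median was 0.05. The largest change was the rise of UTP14A, 3.12-fold, and the largest fall that of LYAR, 1.38-fold. A rise of at least 1.5-fold past the test was seen in 5 genes (UTP14A, NOC3L, UTP3, RRS1 and NOP58), 9.09% of those measured against 6.43% of all genes, and a fall of that size in none, against 3.24% of all genes.

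**Figure D1:**
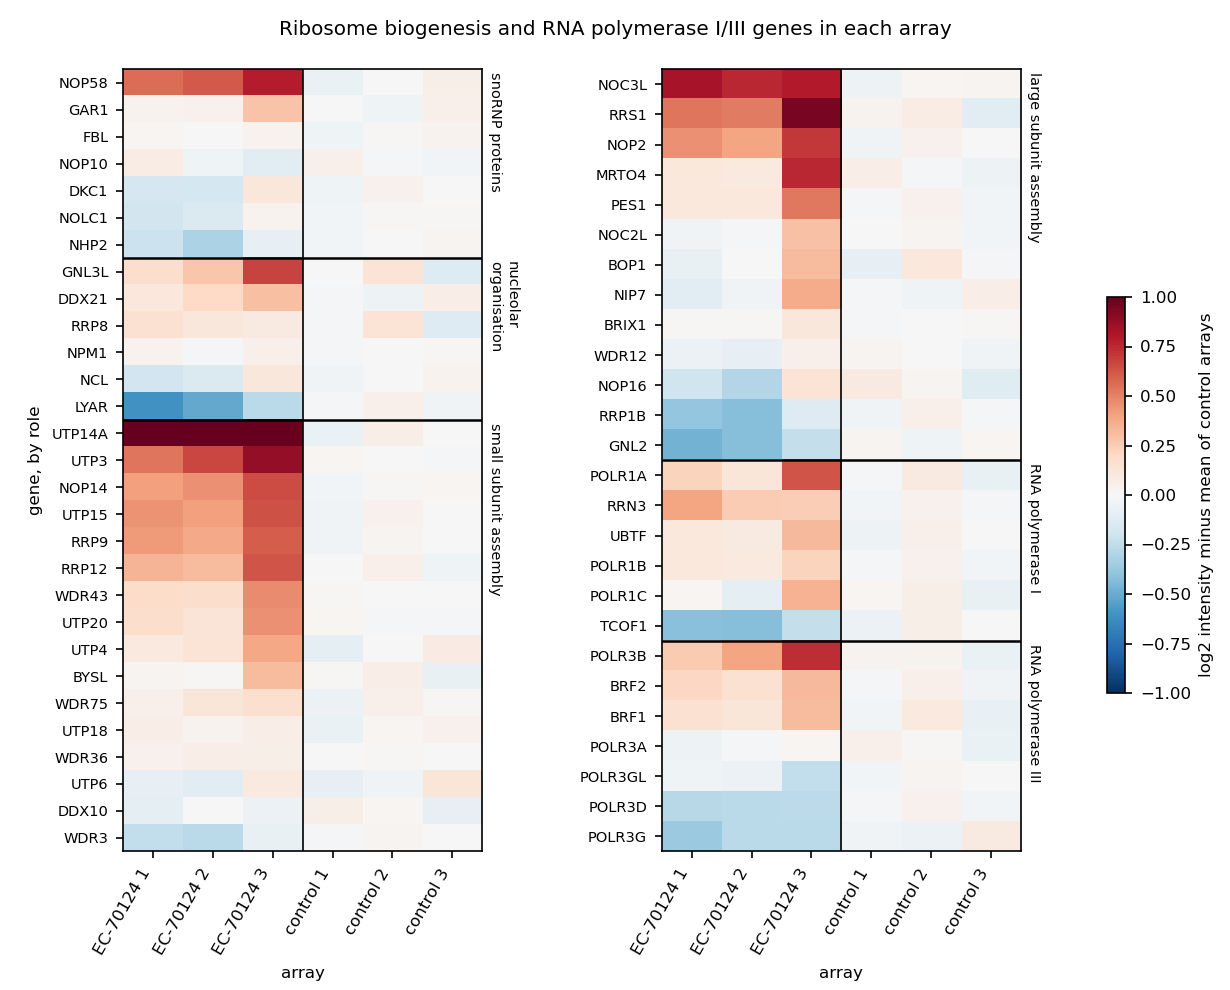
Log2 intensity of the 55 measured genes (rows, grouped by role) minus the mean of the control arrays, in the 3 EC-70124 arrays and the 3 control arrays (columns). The colours end at -1 and 1. UTP14A, NOC3L and UTP3 are red in all treated arrays, LYAR, GNL2 and POLR3G are blue, and EC-70124 replicate 3 is the reddest treated array in most rows.

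Among the snoRNP proteins, 1 of 7 measured genes rose (14.3%, against 19.7% of all genes) and none fell (14.8% of all genes). NOP58, a core protein of the box C/D particles that guide ribose methylation of rRNA, had intensities of 4786, 4981 and 5594 in EC-70124 replicates 1 to 3, against 3115, 3268 and 3384 in the controls. All treated values lay above all controls, a change of 0.65 on the log2 scale (standard error 0.07, adjusted p = 0.000261 from limma). FBL, the methyltransferase of the same particles, read 7792, 7644 and 7878 with EC-70124 and 7466, 7719.5 and 7846 in controls. Its groups overlapped, with a change of 0.02 on the log2 scale (standard error 0.05, adjusted p = 0.834 from limma). The 4 proteins of the box H/ACA particles, which guide pseudouridine formation, gave log2 fold changes from -0.21 for NHP2 to 0.12 for GAR1, and none passed the test. DKC1, their pseudouridine synthase, was at -0.08, and NOLC1, a chaperone of snoRNPs, at -0.10. Without EC-70124 replicate 3, NHP2 (-0.27, adjusted p = 0.00901), DKC1 (-0.17, adjusted p = 0.0369) and NOLC1 (-0.17, adjusted p = 0.0376) were called lower by limma. The value of NHP2 is uncertain. A second, dimmer probe set of its symbol changed by -0.12 with all arrays (adjusted p = 0.231 from limma over all probe sets). Which probe set reads NHP2 better was not tested, and the second was not fitted alone without EC-70124 replicate 3.

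Of 6 measured nucleolar organisation factors, LYAR fell (16.7%, against 14.8% of all genes) and none rose (19.7% of all genes). LYAR, a nucleolar zinc finger protein that promotes rRNA processing and cell growth, had intensities of 1892, 2013 and 2377 in the EC-70124 arrays, against 2839, 2969 and 2807 in the controls. The groups did not overlap (log2 fold change -0.46, standard error 0.09, adjusted p = 0.00389 from limma). NPM1, nucleophosmin, the abundant histone and ribosome chaperone of the outer nucleolus, read 11739, 11341 and 11913 with EC-70124 and 11364, 11486 and 11587 in controls, a log2 fold change of 0.02. NPM1 has 4 probe sets of its own and many processed copies in the genome, so that its value may include related transcripts. NCL, nucleolin, which binds the nascent precursor, read 6689, 6904 and 8274 with EC-70124 against 7446, 7660.5 and 7847 in controls. Replicates 1 and 2 of EC-70124 lay below all controls and replicate 3 above them. With all arrays NCL did not pass (log2 fold change -0.08, adjusted p = 0.552 from limma), and without EC-70124 replicate 3 it was called lower (-0.17, adjusted p = 0.0413). DDX21, a helicase that links polymerase I transcription with processing, had a change of 0.20 on the log2 scale (adjusted p = 0.0528), GNL3L, a nucleolar GTPase, of 0.38 (adjusted p = 0.0573), and RRP8, an rRNA methyltransferase, of 0.12. None of these passed limma's test.

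The small-subunit factors had the most rises. Of 16 genes, 7 were higher (43.8%, against 19.7% of all genes) and none was lower (14.8% of all genes). The median log2 fold change was 0.23. Without EC-70124 replicate 3 the median was 0.14, with 7 higher and 1 lower (43.8% and 6.25%, against 21.1% and 16.0% of all genes). Quantile normalization and cyclic loess each gave 6 higher and 1 lower (37.5% and 6.25%). The shares of all genes were then 16.9% and 19.2% with quantile normalization, and 18.0% and 16.9% with cyclic loess. UTP14A, a component of the processome, had intensities of 1901, 1876 and 2548 in the EC-70124 arrays, against 638, 702 and 671 in the control arrays. Each treated value was well above the highest control, and the log2 fold change was 1.64 (standard error 0.12, adjusted p = 3.0e-05 from limma). UTP14A was also called higher without EC-70124 replicate 3 (adjusted p = 2.0e-05 from limma). UTP3, another processome protein, read 2164, 2372 and 2754 with EC-70124 against 1511, 1486 and 1484 in controls. The controls were within a narrow range and the treated arrays all above it (log2 fold change 0.69, standard error 0.09, adjusted p = 0.000474 from limma). NOP14, needed for the maturation of the small subunit, read 3323, 3422 and 3913 against 2448, 2511 and 2529 in controls, a change of 0.51 on the log2 scale (standard error 0.07, adjusted p = 0.000897 from limma). UTP15, which acts in rRNA transcription as well as processing, rose by 0.50, RRP9, a protein of the snoRNP at the heart of the processome, by 0.47, RRP12, a factor of subunit maturation and export known from yeast, by 0.43 and WDR43 by 0.28 on the log2 scale. Without EC-70124 replicate 3 the changes were 0.43 for UTP15, 0.40 for RRP9, 0.33 for RRP12 and 0.18 for WDR43. The call of WDR43 was lost after quantile normalization (adjusted p = 0.0582), after cyclic loess (0.0568) and without control replicate 1 (0.0897), 2 (0.0938) or 3 (0.0866). The other 9 genes ran from -0.20 for WDR3 to 0.26 for UTP20, and without EC-70124 replicate 3 WDR3 was called lower (-0.26, adjusted p = 0.00614 from limma).

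The processome is built from modules, of which UTP-A and UTP-B are the first. This grouping was made after the values were seen, and the difference between the modules was not tested. Of the 6 genes of UTP-A, the module that binds the start of the precursor, UTP15 and WDR43 were called higher (33.3%, against 19.7% of all genes), and UTP4, WDR75, HEATR1 and NOL11 were not called, with a median log2 fold change of 0.22 over the 6. Of the 6 genes of UTP-B (UTP6, UTP18, WDR3, WDR36, PWP2 and TBL3), none was called, and the median was -0.06, with a range of -0.20 to 0.06. The module medians were not computed without EC-70124 replicate 3. In that setting UTP4 was at 0.12, UTP15 at 0.43, WDR43 at 0.18 and WDR75 at 0.09. UTP6 was then at -0.10, UTP18 at 0.05, WDR3 at -0.26 and WDR36 at 0.05.

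The promoter of UTP14A is shown because this gene had the largest change in the list. It is the stretch of 250 bases before the annotated start at chrX:129905914-129906163 of GRCh38.p14, plus strand, from RefSeq. Capitals mark CACGTG, the E box that MYC and related factors bind, with its first base 241 bases before the start, and TCGCGA, a palindrome common in promoters of housekeeping genes, 56 bases before it.
UTP14A: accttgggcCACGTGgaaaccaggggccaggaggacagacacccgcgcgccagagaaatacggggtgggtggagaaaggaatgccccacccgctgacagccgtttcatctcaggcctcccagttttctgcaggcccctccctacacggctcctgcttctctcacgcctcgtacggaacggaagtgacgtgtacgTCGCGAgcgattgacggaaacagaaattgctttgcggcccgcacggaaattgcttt

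Of 13 measured large-subunit factors, 3 rose and 2 fell (23.1% and 15.4%, near the 19.7% and 14.8% of all genes). The median log2 fold change was 0.08. Without EC-70124 replicate 3 the median turned to -0.02, with 3 higher and 3 lower. NOC3L, a nucleolar protein of early large-subunit precursors known from yeast, read 3411, 3260.4 and 3354 with EC-70124 against 1864, 1961 and 1972 in controls. The 3 treated values were close together and all above the controls (log2 fold change 0.79, standard error 0.05, adjusted p = 2.6e-05 from limma), and without EC-70124 replicate 3 the value was still 0.79. RRS1, which brings the smallest rRNA with its proteins into the precursor, read 2257, 2232 and 3004 against 1593, 1639.8 and 1449 in controls. Here replicate 3 was the highest and the groups were again apart (log2 fold change 0.67, standard error 0.12, adjusted p = 0.00276 from limma). NOP2, a methyltransferase of large-subunit rRNA, read 3663, 3498 and 4344 against 2607, 2738 and 2651 in controls, a change of 0.52 on the log2 scale (standard error 0.08, adjusted p = 0.00187 from limma).

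The falls of this role were those of GNL2 and RRP1B. GNL2, a GTPase of late nuclear precursors, read 3179.6, 3270.2 and 3737 with EC-70124 against 4481, 4278 and 4452 in controls, with no overlap (log2 fold change -0.38, standard error 0.07, adjusted p = 0.00419 from limma). RRP1B, a nucleolar protein of rRNA processing, read 1716, 1666 and 2049 against 2190.2, 2321.5 and 2208 in controls (log2 fold change -0.31, standard error 0.08, adjusted p = 0.0208 from limma). Its call was lost when EC-70124 replicate 1 (adjusted p = 0.0672) or 2 (0.0740) or control replicate 1 (0.0528), 2 (0.0752) or 3 (0.0507) was left out. PES1, BOP1 and WDR12 form the PeBoW complex of large-subunit processing, and their log2 fold changes of 0.25, 0.08 and -0.03 did not pass the test. MRTO4, a factor of the subunit's stalk, had 0.32 with a standard error of 0.16. Its intensities were 1511, 1497 and 2358 with EC-70124 and 1468, 1390.5 and 1350 in controls, with EC-70124 replicate 3 far above the other arrays. NOP16 was at -0.12 with all arrays and was called lower without that replicate (-0.25, adjusted p = 0.0435 from limma).

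**Figure D2:**
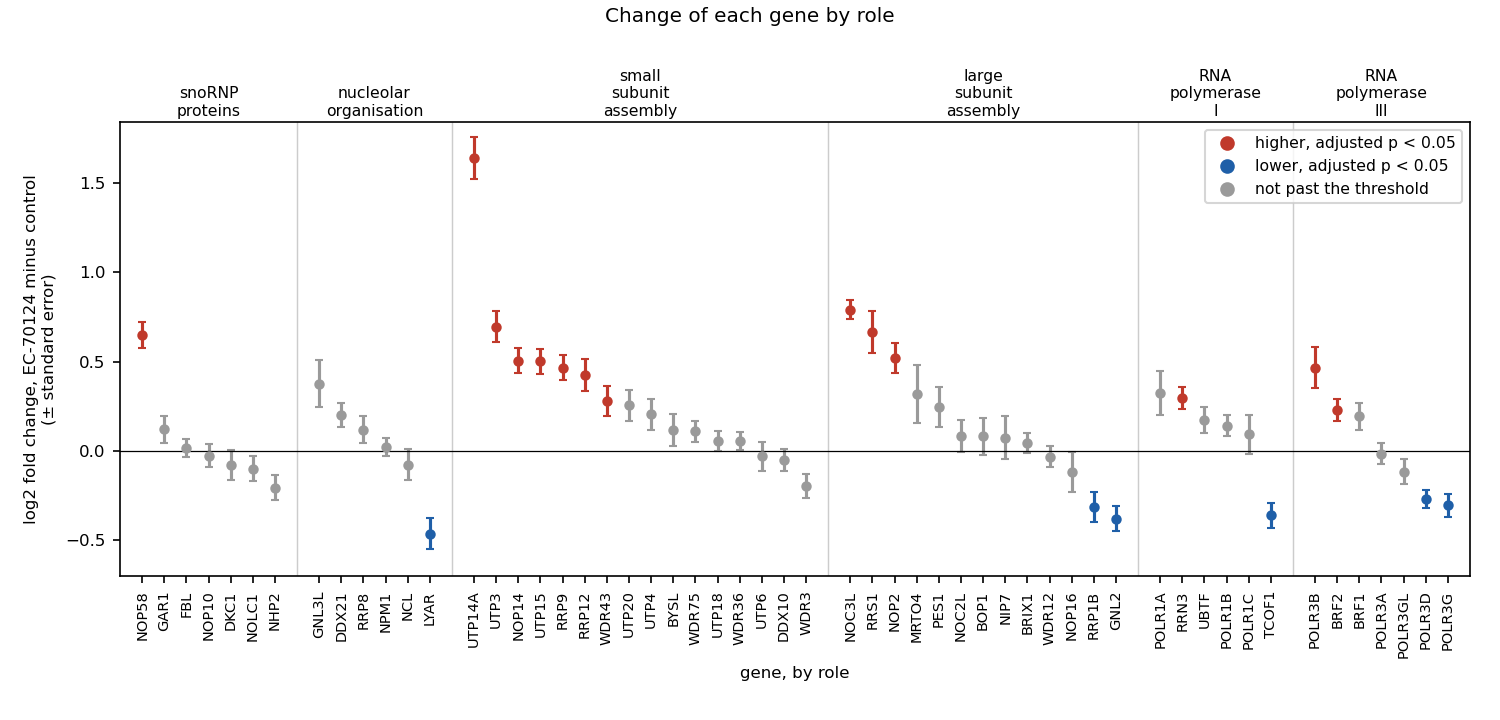
Log2 fold change, EC-70124 minus control (y axis, bars: standard error from limma, 3 arrays per group), of the 55 measured genes grouped by role (x axis). Red and blue points passed an adjusted p of 0.05 and gray points did not. Rises are most frequent among the 16 small-subunit factors, led by UTP14A at 1.64, and the RNA polymerase III genes lie on both sides of 0.

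For RNA polymerase I, 1 of 6 genes rose and 1 fell (16.7% each way, near the 19.7% and 14.8% of all genes). RRN3, the initiation factor that makes the polymerase competent to start and that growth signals control, read 3891, 3514 and 3507 with EC-70124 against 2906, 3038 and 2921 in controls. The groups did not overlap, replicate 3 was not the highest, and the log2 fold change was 0.30 (standard error 0.06, adjusted p = 0.00629 from limma). RRN3 has pseudogene copies that share 3 further probe sets with it in the annotation, so that its value is uncertain. TCOF1, treacle, a scaffold of rRNA gene transcription, read 1576, 1562 and 1784 against 2020.3, 2184 and 2103 in controls, a change of -0.36 on the log2 scale (standard error 0.07, adjusted p = 0.00449 from limma). POLR1A, the largest subunit, read 2259, 2100.01 and 2988 with EC-70124 against 1905, 2059 and 1840.2 in controls. All treated values lay above the controls, but EC-70124 replicate 3 was far above the others, and the log2 fold change of 0.32 had a standard error of 0.13 (adjusted p = 0.0820 from limma). POLR1B, the next largest subunit, read 2188, 2175 and 2369 against 2017, 2092 and 1992 in controls (log2 fold change 0.14, adjusted p = 0.104 from limma). UBTF, the factor that keeps rRNA genes open, read 2864, 2835 and 3331 against 2575, 2761 and 2650.25 in controls (0.17, adjusted p = 0.117 from limma). POLR1C, a subunit shared by polymerases I and III, was at 0.09.

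For RNA polymerase III, 2 of 7 genes rose and 2 fell (28.6% each way, against 19.7% and 14.8% of all genes). POLR3B, the second largest subunit, read 1189, 1307 and 1658 with EC-70124 against 1018, 1016 and 946 in controls (log2 fold change 0.47, standard error 0.11, adjusted p = 0.0142 from limma). The call was lost without control replicate 3 (adjusted p = 0.0515). POLR3A, its largest partner, read 2044, 2096 and 2138 against 2191, 2134 and 2018 in controls, and the groups overlapped (log2 fold change -0.01, standard error 0.06). POLR3D, a smaller subunit, read 2282, 2297 and 2306 with EC-70124 against 2738, 2842 and 2717 in controls, a change of -0.27 on the log2 scale (standard error 0.05, adjusted p = 0.00410 from limma). In POLR3D the treated arrays nearly coincided, replicate 3 included.

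POLR3G and POLR3GL are alternative forms of the same polymerase III subunit, the first known for its high level in stem cells and tumours. POLR3G read 2743, 2949 and 2944 with EC-70124 against 3474, 3415 and 3777 in controls, a change of -0.30 on the log2 scale (standard error 0.06, adjusted p = 0.00637 from limma). POLR3GL read 1007, 992 and 875 against 1017, 1053 and 1038 in controls, a change of -0.12 on the log2 scale (standard error 0.07, adjusted p = 0.242 from limma). After quantile normalization POLR3GL too was called lower (-0.21, adjusted p = 0.0345 from limma), and in no other alternative. Within each array, POLR3G minus POLR3GL averaged 1.59 ± 0.15 with EC-70124 and 1.78 ± 0.08 in controls (log2, SD, n = 3 each), a difference of -0.19. A two-sided exact permutation test gave p = 0.2, with 0.1 the smallest p that 3 against 3 arrays allow, so that unequal change of the pair could not be shown. BRF1 and BRF2 are the alternative initiation factors of the polymerase, BRF1 at transfer RNA genes and BRF2 at genes whose promoter lies upstream. BRF1 read 863, 845 and 969 with EC-70124 against 762, 835 and 741 in controls (log2 fold change 0.19, standard error 0.08, adjusted p = 0.0819 from limma). BRF2 read 455, 439 and 493 against 389, 408 and 385 in controls (0.23, standard error 0.06, adjusted p = 0.0227 from limma), and its call was lost without control replicate 1 (0.0804) or 3 (0.0722). Within arrays, BRF1 minus BRF2 averaged 0.95 ± 0.03 with EC-70124 and 0.98 ± 0.05 in controls (log2, SD, n = 3 each), a difference of -0.03 (two-sided exact permutation p = 0.5).

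**Figure D3:**
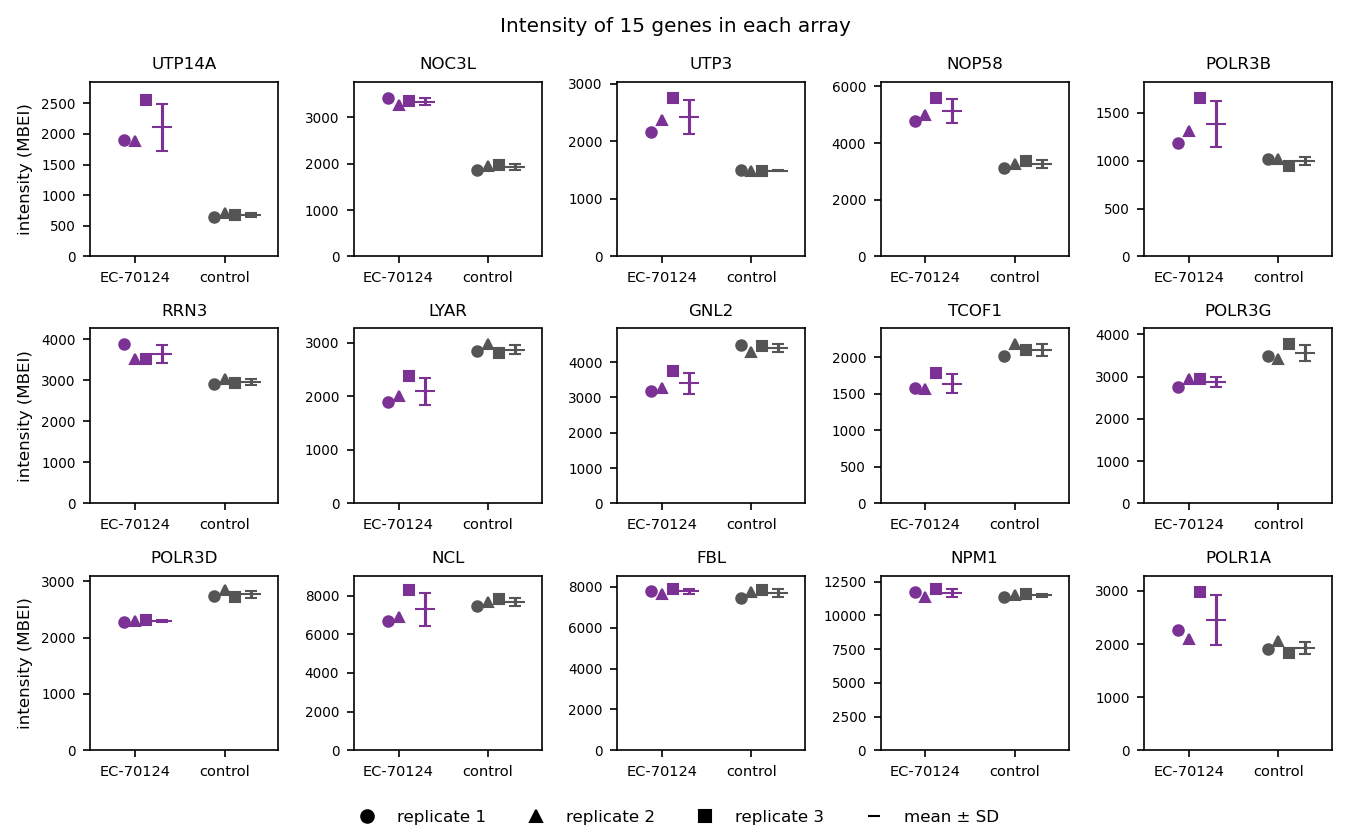
Intensity (MBEI, linear y axes that start at 0) of 15 genes in the EC-70124 arrays (purple) and the control arrays (gray). Symbols mark replicates 1 to 3, and the bar beside them is the mean with its SD. UTP14A and NOC3L lie apart between groups, NCL has EC-70124 replicate 3 above and the other treated arrays below the controls, and FBL and NPM1 overlap.

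The rest of the pathway was taken from lists of 110 further genes, of which 105 were measured. These lists too were chosen with earlier results of these data known, so that their shares only describe the genes listed. Of these, 48 were higher (45.7%, against 19.7% of all genes) and 7 were lower (6.67%, against 14.8%), with a median log2 fold change of 0.20. Together with the 55 genes above, 62 of 160 were higher (38.8%) and 13 lower (8.13%). EC-70124 replicate 3 gave the highest treated value in 77 of the 105 (73.3%). Without it 50 were called higher and 13 lower (47.6% and 12.4%, against 21.1% and 16.0% of all genes). Leaving out any 1 of the other 5 arrays gave 41 to 47 higher and 1 or 2 lower. Of all genes, 16.2% to 17.6% were then higher and 11.6% to 12.7% lower. After quantile normalization 41 were higher and 13 lower (39.0% and 12.4%, against 16.9% and 19.2% of all genes).

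Among 10 further polymerase I genes, 3 rose (30%, against 19.7% of all genes) and none fell (14.8% of all genes). The rises were led by TAF1D and TAF1B, subunits of the selectivity factor SL1 that recruits polymerase I. TAF1D read 8751, 8428 and 8689 with EC-70124 against 3971, 4303 and 4264 in controls, a change of 1.05 on the log2 scale (adjusted p = 1.0e-05 from limma), and TAF1B had 0.36. Among 20 further polymerase III genes, 10 rose and 2 fell (50% and 10%, against 19.7% and 14.8% of all genes). The counts were the same without EC-70124 replicate 3. After quantile normalization 7 rose and 5 fell (35% and 25%, against 16.9% and 19.2% of all genes). POLR3C, a subunit of the polymerase's initiation module, read 5147, 4919 and 5469.8 with EC-70124 against 2167, 2328 and 2192 in controls, a change of 1.22 on the log2 scale (adjusted p = 8.2e-06 from limma), and CRCP, another of its subunits, had 0.61. The falls were those of POLR3K, a small subunit (2277, 2932 and 3280 with EC-70124 against 3812, 4052 and 3881 in controls, log2 fold change -0.48, adjusted p = 0.0155 from limma), and SNAPC2, a subunit of the complex that activates small nuclear RNA genes (-0.18, adjusted p = 0.0455). With the members, the 10 measured subunits particular to polymerase III held 4 rises and 3 falls (40% and 30%, against 19.7% and 14.8% of all genes). The 4 genes of TFIIIB, the initiation factor of polymerase III (BRF1, BRF2, BDP1 and TBP), held 3 rises (75%) and ran from 0.19 to 0.39. Of these rises, that of BRF2 lost its call without control replicate 1 or 3. Both groupings were made after the values were seen.

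Of 32 further small-subunit factors, 14 rose and 3 fell (43.8% and 9.38%, against 19.7% and 14.8% of all genes), with log2 fold changes of 0.76 for the helicase DDX49 and 0.68 for DHX37, the helicase that UTP14A is known to activate. Their median log2 fold change was 0.21 with all arrays and 0.13 without EC-70124 replicate 3, where 4 fell, and 0 or 1 fell when any other array was left out. Of 30 further large-subunit factors, 16 rose and 2 fell (53.3% and 6.67%), with 0.94 for the polynucleotide kinase NOL9 and 0.88 for NOL8. Without EC-70124 replicate 3, 16 rose and 6 fell, and none fell when any other array was left out. Of 13 genes of the RNA exosome, which trims and degrades RNA from its end, 5 rose (38.5%, against 19.7% of all genes) and none fell. EXOSC4 was at 0.46 and EXOSC8 at 0.45, and 6 rose and 1 fell without EC-70124 replicate 3.

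**Figure D4:**
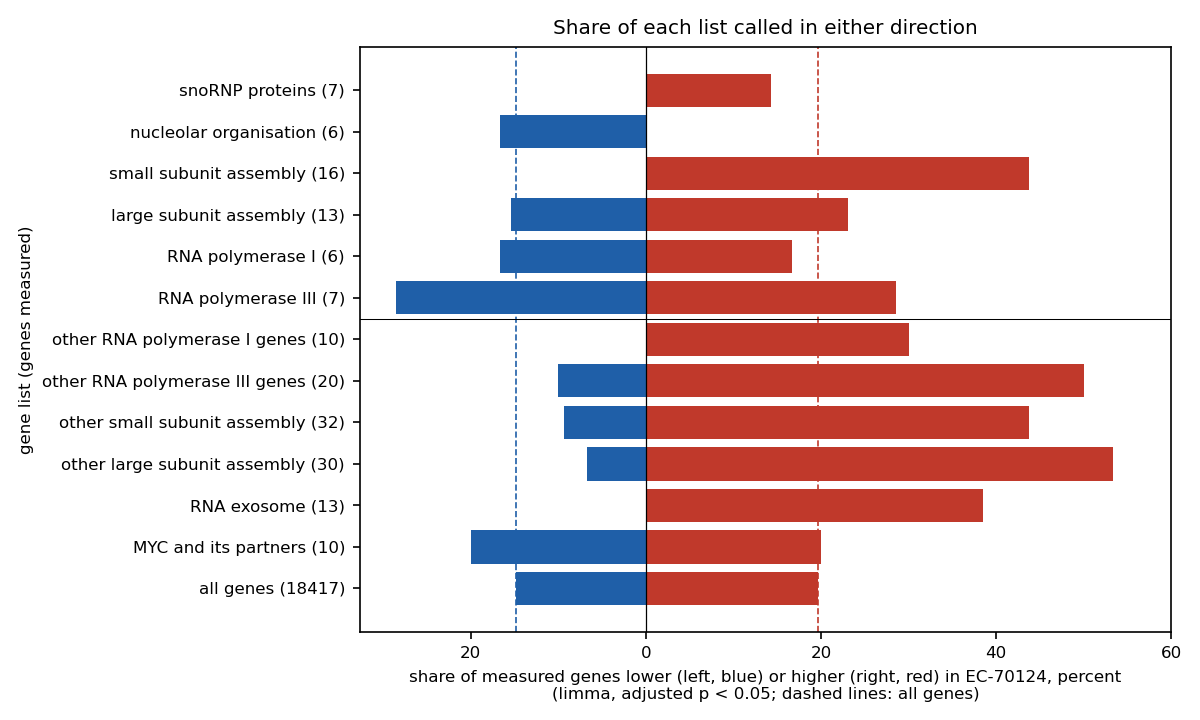
Share of the measured genes of each list (number in parentheses, y axis) called higher (red, right) or lower (blue, left) in EC-70124 samples, in percent (x axis, limma, adjusted p under 0.05). The dashed lines are the shares of all genes, 19.7% higher and 14.8% lower. The small-subunit factors reach 43.8% higher, and the further large-subunit factors 53.3%.

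MYC, which activates many of these genes, read 8150, 8184 and 7178 with EC-70124 against 8892, 9106 and 8886 in controls. All treated values lay below the controls, with EC-70124 replicate 3 the lowest, and the log2 fold change of -0.20 did not pass (standard error 0.07, adjusted p = 0.0529 from limma). Of 10 genes of MYC and its partners, 2 rose and 2 fell (20% each way, against 19.7% and 14.8% of all genes). Quantile normalization and cyclic loess each gave 1 higher and 4 lower (10% and 40%). The shares of all genes were then 16.9% and 19.2% with quantile normalization, and 18.0% and 16.9% with cyclic loess. Leaving out any 1 array gave 1 higher and 2 or 3 lower. MXI1, MNT and MXD1 all compete with MYC for its partner MAX, and they did not move the same way: MXI1 and MNT fell and MXD1 rose (log2 fold change 0.18, adjusted p = 0.0475). The other rise was that of MLX, a relative of MAX (0.25, adjusted p = 0.00930). MXI1 read 1101, 1191 and 804 with EC-70124 against 1668, 1735 and 1704 in controls (log2 fold change -0.74, standard error 0.13, adjusted p = 0.00300 from limma), and MNT had -0.48 (adjusted p = 0.000748).

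Promoters were read for the members that RefSeq's table holds, 47 of the 58, as 250 bases before to 50 bases after the annotated start. The E box CACGTG, whose letters read the same on both strands, was in 16 of the 45 windows of measured members (35.6%), against 8.88% of the 14239 windows of genes tested. Of 89 further pathway genes with a window, 27 held it (30.3%). It was in 6 of 10 windows of members called higher, in 1 of 2 of members called lower and in 9 of 33 of members not called. The rest of the 14 members called higher and the 6 called lower had no window. Over all genes tested, it was in 11.5% of those called higher, 7.79% of those called lower and 8.29% of those not called. Among further pathway genes it was in 14 of 37 called higher, 1 of 6 called lower and 12 of 46 not called. TCGCGA, also the same on both strands, was in 7 of 45 (15.6%, against 4.51%), and CCGGAAG, a motif of ETS factors searched on both strands, in 20 of 45 (44.4%, against 14.6%). No letters of a match to 1 of these motifs were removed before the search for another. A match shows only that the letters are there, and base composition was not matched.

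The E boxes of the called members are shown because they lie close to the start in 6 of the 7 genes. Positions were not read in members not called or in other genes, so that this closeness has no comparison. Each line holds the motif in capitals with up to 12 bases on either side, on the strand of the gene, from GRCh38.p14. The motif begins 5 bases before the start in RRP9, and at base 4 after it in WDR43 and GNL2, 16 in NOP14, 20 in NOC3L and 36 in NOP2. In UTP14A it begins 241 bases before the start. GNL2 fell and the other 6 rose. The windows are at chr3:51941892-51941921 (RRP9), chr2:28894658-28894687 (WDR43), chr1:37595917-37595946 (GNL2), chr4:2963374-2963403 (NOP14), chr10:94362903-94362932 (NOC3L) and chr12:6568242-6568268 (NOP2). All are on the minus strand except WDR43.
RRP9: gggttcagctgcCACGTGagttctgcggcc
WDR43: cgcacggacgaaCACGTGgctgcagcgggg
GNL2: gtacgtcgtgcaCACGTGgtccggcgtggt
NOP14: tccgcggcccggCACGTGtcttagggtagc
NOC3L: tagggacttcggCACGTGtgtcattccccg
NOP2: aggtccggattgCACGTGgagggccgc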

How the data were processed

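mRNA of 3 EC-70124 and 3 control samples was measured on 1 Affymetrix Human Gene ST array each. The authors imported the arrays into dChip, normalized them in pairs on probes of invariant rank, and deposited for each probe set an expression index from dChip's model, which is an intensity on a linear scale. How dChip corrected the background, and its version, is not given in the sources used here. No scan date or batch is named in the labels. Values below 1 were raised to 1 before log2 was taken. Of 33252 probe sets, 19460 carry 1 gene symbol, and each of 18417 genes was represented by its probe set with the highest mean. Symbols were compared with a current table through the Entrez identifier (28 unmatched, 0 differing). The groups were compared with limma 3.58.1 (lmFit, eBayes; R 4.3.3), two-sided, with Benjamini-Hochberg adjustment over all genes. The scripts were tested on simulated data. Precision is limited by the number of arrays. The standard error of the log2 change had a median of 0.07 over genes.

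The members and lists were chosen with earlier results of these data known, as were roles and the rule for named genes: per role, the called members with the 3 largest changes in each direction, a fixed set of core genes, and up to 2 called genes of each further list. MRTO4, shown in every sample, is outside this rule and was chosen after its values were seen, as were the complexes. Alternatives covered quantile normalization, cyclic loess, the 30% dimmest genes left out, an offset of 50, the median over probe sets, limma with a trend on intensity and robust variances, the replicate number as a block and leaving out each replicate.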

Additional observations from a re-analysis of the deposited data

How the results depend on the processing

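Of the 20 members called, 16 kept their call in all 13 alternatives, WDR43, RRP1B, POLR3B and BRF2 lost it in some, and none changed direction. Of the 35 members not called, 12 passed in at least 1 alternative. Leaving out each replicate in turn gave 11 to 16 members higher and 5 to 12 lower, the 12 without EC-70124 replicate 3, where NHP2, DKC1, NOLC1, NCL, WDR3 and NOP16 were added. Median log2 fold changes of the members then ran from 0.05 to 0.16. Members called were then 20% to 29.1% higher and 9.09% to 21.8% lower. Of all genes, 16.2% to 21.1% were higher and 11.6% to 16.0% lower. Over the alternatives that keep all arrays, 13 to 17 members were higher (23.6% to 30.9%) and 6 to 9 lower (10.9% to 16.4%). Of all genes tested, 16.9% to 26.7% were then higher and 14.5% to 21.0% lower. Deviations of samples with the same replicate number correlated at -0.02 to 0.14, and those with different numbers at -0.22 to 0.15. With 3 arrays per group, this cannot settle whether the numbers pair the samples. With the number as a block 16 members were higher and 6 lower (29.1% and 10.9%, against 19.1% and 14.5% of all genes). Without a background level in the table, dim genes could not be told from genes that are not expressed.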

Other observations

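NHP2, BOP1 and NPM1 have further probe sets of their own symbol, which the gene table does not use. The second probe set of NHP2 read 2209, 2126 and 2391 with EC-70124 against 2380, 2475 and 2467 in controls (log2 fold change -0.12), and that of BOP1 read 1684, 1700.4 and 2202 against 1723, 1796 and 1758 (0.07). In both, EC-70124 replicate 3 was the highest of the treated arrays. The further probe sets of NPM1 had log2 fold changes of 0.14, 0.02 and 0.02, and none passed limma's test over all probe sets. The one with 0.14 was far dimmer than the others of NPM1. It read 151, 141 and 123 with EC-70124 against 136, 130 and 110 in controls.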
